A study of Mus musculus with 24 samples.

Results

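The levels of 6 astrocyte genes (Gfap, Slc1a2, Slc1a3, Aldh1l1, Agt and Gja1) and 3 tanycyte genes (Rax, Vim and Nes) were followed through ovary, uterus, pituitary and hypothalamus of mice carrying preimplantation embryos. The 9 were found by their gene symbols, and each had its own row among the 24195 gene symbols of the deposited count tables. Females were of the C57BL6 strain, 8 to 10 weeks old and virgin before a natural mating. Whole tissues were taken at 2.5 days post coitus, when the oviduct was flushed to check for embryos. Tissues came from wild-type mice or from mice labelled as lacking Kdm4a, a histone lysine demethylase, with 3 libraries for each tissue and genotype and 24 in all. The labels call the 3 libraries of a group biological replicates, and they do not name the animals, the design of the Kdm4a allele or whether tissues were shared among libraries.

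Astrocytes take up glutamate released by neurons, couple to each other through gap junctions and supply metabolites to neurons. Tanycytes are elongated glial cells that line the floor of the third ventricle, send processes to the median eminence and portal vessels, and regulate access of gonadotropin-releasing hormone terminals to the blood. Pituicytes of the posterior lobe of the pituitary are a related type of glia. Several of the 9 genes are also used outside the nervous system: Gja1 joins granulosa cells of the ovarian follicle, Agt is secreted by liver, and Vim is the main intermediate filament of fibroblasts and other stromal cells.

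Levels are given as CPM, read counts scaled to a common library total, with library factors from the trimmed mean of M values (TMM) over the 24 libraries. Total counts ranged from 13201596 to 23865382 per library, and 1 CPM on this scale was more than 10 reads in each. In pituitary the hormone genes Prl and Gh took 34.7% to 54.8% of all counts, and pituitary TMM factors (0.511 to 0.789) were below those of the other tissues (0.962 to 1.3). Kdm4a itself did not separate the genotypes: its level was 28.6 to 44.6 CPM in wild-type and 32.8 to 66.9 CPM in knockout-labelled hypothalamus, and the groups also overlapped in pituitary and ovary. In uterus the wild-type libraries held 78.9 to 89.5 CPM, and the knockout-labelled ones, at 58.8 to 64 CPM, were all lower. Counts are per gene, and the deleted part of Kdm4a is not given in the sources used here, so the libraries are called KO-labelled. The tissue labels held: Pmch, a neuropeptide gene of the lateral hypothalamus, was at 288 to 522 CPM in hypothalamus, at 0 in all 6 pituitary libraries and at 1.21 CPM or less elsewhere. In each tissue 1 KO-labelled library lay farthest from the others on the first principal component, namely library 2 in hypothalamus, library 1 in pituitary, library 2 in ovary and library 1 in uterus.

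Promoter sequence is shown for 4 members as examples of 3 tissue patterns: Gfap and Slc1a3, which were high in hypothalamus, Agt, which was high in hypothalamus and ovary, and Gja1, which was highest in ovary. Each line gives the 250 bases before the RefSeq gene start (GRCm38.p6), from 5′ to 3′ on the gene's strand, at chr11:102897201-102897450 (minus strand) for Gfap, chr15:8710808-8711057 (minus strand) for Slc1a3, chr8:124569707-124569956 (minus strand) for Agt and chr10:56377050-56377299 (plus strand) for Gja1. Capitals mark matches, on either strand, to TATAAA (the core motif of many promoters), CCAAT (for NF-Y), GGGCGG (for Sp1), TGANTCA (for AP-1), TTCNNNGAA (for STAT factors) or the palindromic NFI motif.
Gfap: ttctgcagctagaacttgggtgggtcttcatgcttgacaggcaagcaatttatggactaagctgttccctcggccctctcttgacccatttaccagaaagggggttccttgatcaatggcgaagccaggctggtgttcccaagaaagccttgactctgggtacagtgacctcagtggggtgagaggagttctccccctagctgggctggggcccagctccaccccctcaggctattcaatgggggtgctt
Slc1a3: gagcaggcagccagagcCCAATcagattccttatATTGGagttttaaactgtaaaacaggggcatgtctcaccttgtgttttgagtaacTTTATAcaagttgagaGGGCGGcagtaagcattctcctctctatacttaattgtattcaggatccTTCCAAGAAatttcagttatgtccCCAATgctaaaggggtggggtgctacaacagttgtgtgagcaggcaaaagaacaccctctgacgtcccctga
Agt: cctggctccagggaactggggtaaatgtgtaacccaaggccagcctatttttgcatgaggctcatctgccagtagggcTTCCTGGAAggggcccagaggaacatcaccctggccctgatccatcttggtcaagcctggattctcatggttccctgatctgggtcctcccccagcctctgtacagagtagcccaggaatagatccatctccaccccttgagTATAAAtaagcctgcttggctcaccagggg
Gja1: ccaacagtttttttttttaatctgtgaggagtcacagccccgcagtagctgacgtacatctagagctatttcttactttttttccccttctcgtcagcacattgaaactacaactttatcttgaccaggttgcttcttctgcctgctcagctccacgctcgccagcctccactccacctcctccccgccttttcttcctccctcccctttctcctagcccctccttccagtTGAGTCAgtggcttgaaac
In the Agt promoter TATAAA stood at -30 to -25 from the start, and a STAT match at -172 to -164. In Gja1 the AP-1 match stood at -19 to -13. The Slc1a3 window held 3 CCAAT matches, 1 GGGCGG match, a STAT match and TATAAA at -161 to -156, while the Gfap window held none of the 6 motifs. Of all 32851 promoters of the same length in the RefSeq table, 12.4% held TATAAA, 33.8% CCAAT, 32.7% GGGCGG, 6.75% the AP-1 letters, 7.02% the STAT letters and 0.0365% the NFI motif. The Agt window had 0 CpG dinucleotides, and its observed over expected CpG ratio was 0.00, against 0.10 in Gfap, 0.16 in Slc1a3, 0.47 in Gja1 and a median of 0.37 over all promoters. Promoters were taken for 8 of the 9 members, without Rax.

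Led by the glutamate transporters, 5 members were highest in wild-type hypothalamus, while Gja1 peaked in ovary, Vim in uterus, and Rax and Nes in pituitary. All 6 astrocyte genes passed the test as higher in hypothalamus than in pituitary and than in uterus, and 3 of 6 did so against ovary. In edgeR's quasi-likelihood test over the 12 wild-type libraries (Benjamini-Hochberg adjusted p under 0.05), 6 of 9 members were higher in hypothalamus than in pituitary, where 30.8% of all 16399 genes tested were, and 7 of 9 passed in either direction, where 61.1% of all genes did. For hypothalamus against ovary 6 of 9 members passed (71.4% of all genes), 4 of them higher in hypothalamus (35.2%). For hypothalamus against uterus 9 of 9 passed (75.7%), 7 of them higher in hypothalamus (36.8%). Tissues differed in most of their genes, so a call alone set no member apart. The median log2 difference of the 6 astrocyte genes was 5.13 against pituitary, 3.65 against ovary and 7.34 against uterus. The signed median of all genes tested, which TMM scaling holds near 0, was 0.00, -0.03 and -0.07.

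**Figure D1:**
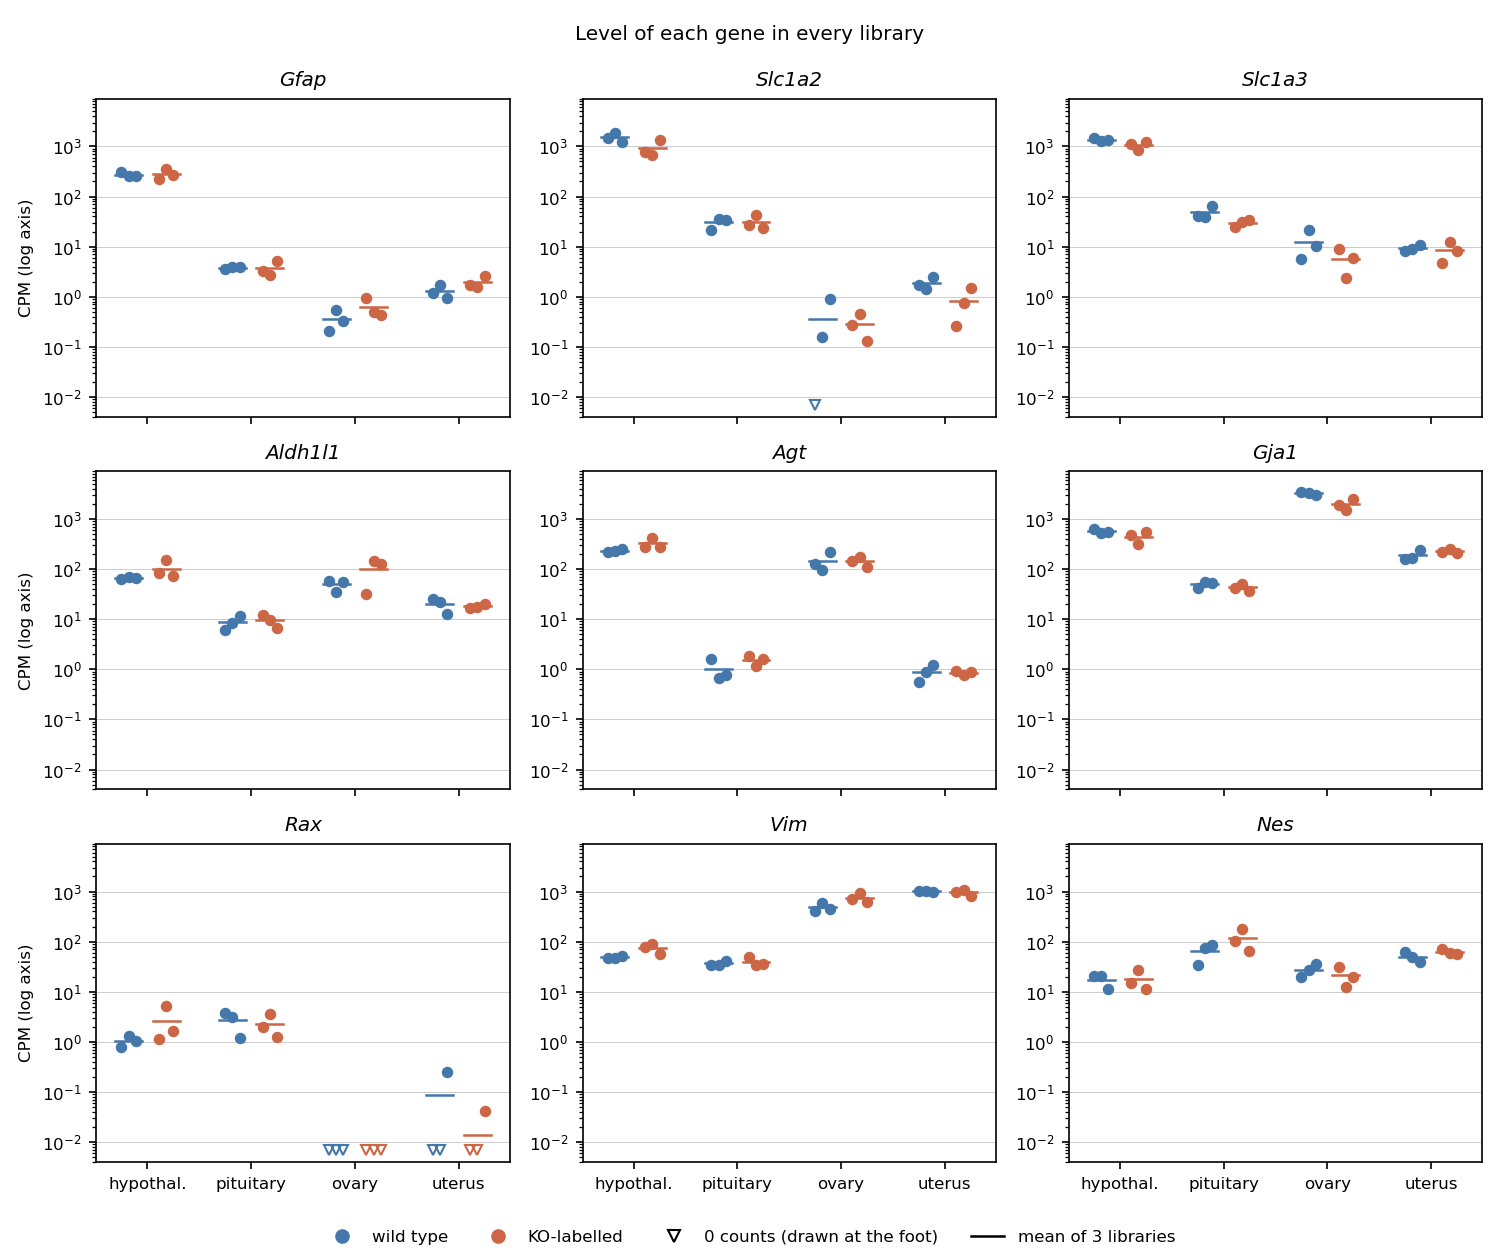
TMM-scaled CPM (log axis) of each of the 9 genes in every library, by tissue and genotype. Points are libraries, bars are means of 3, and libraries with 0 counts are drawn at the foot of the axis. Gfap, Slc1a2 and Slc1a3 stand high in hypothalamus only, Gja1 peaks in ovary, Vim in uterus, and Rax is at 0 in all 6 ovary libraries.

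Gfap encodes the intermediate filament protein by which astrocytes are usually recognised (chr11:102887336-102900912, minus strand, GRCm38). It was at 304, 252 and 251 CPM in wild-type hypothalamus (269 ± 30.3, SD, n = 3) and at 3.51, 3.92 and 3.85 CPM in wild-type pituitary. Uterus held 1.2, 1.73 and 0.922 CPM and ovary 0.209, 0.534 and 0.331 CPM, from 4 to 10 counts per ovary library. No tissues overlapped, and each step in the order hypothalamus, pituitary, uterus, ovary passed the test. The log2 difference was 6.05 ± 0.23 (SE) between hypothalamus and pituitary, a 66.5-fold difference, and 9.46 ± 0.29 between hypothalamus and ovary (edgeR adjusted p 1.61e-10 and 5.34e-12).

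Slc1a2 (GLT-1) and Slc1a3 (GLAST) are the glutamate transporters of astrocytes, and GLAST is also found on tanycytes and other radial glia-like cells. Slc1a2 (chr2:102658659-102790784, plus strand) was at 1493, 1883 and 1249 CPM in wild-type hypothalamus, and at 21.3, 36.4 and 34.5 CPM in pituitary. In ovary it was at 0, 0.16 and 0.909 CPM and in uterus at 1.75, 1.4 and 2.51 CPM. Hypothalamus therefore stood apart by a factor of 46.7 from pituitary (log2 5.55 ± 0.41) and of 772 from uterus (log2 9.59 ± 0.51). The ovary value rested on 0, 3 and 22 counts.

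Slc1a3 (chr15:8634124-8710764, minus strand) was at 1461, 1296 and 1346 CPM in wild-type hypothalamus. Pituitary followed with 40.3, 39.5 and 65.1 CPM, ovary with 5.79, 21.3 and 10.5 CPM and uterus with 8.2, 9.15 and 10.9 CPM. Hypothalamus exceeded pituitary by log2 4.72 ± 0.38 (26.4-fold, edgeR adjusted p 8.26e-08) and pituitary exceeded ovary by 1.97 ± 0.35 (adjusted p 0.000175). Ovary and uterus overlapped (log2 0.40 ± 0.34, adjusted p 0.333), although without wild-type ovary library 1 the difference was 0.75 with an adjusted p of 0.0381.

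Among 7 members of the Slc1 family compared per kilobase of transcript, Slc1a3 and Slc1a2 held 61.9% ± 5.29 and 26.5% ± 4.07 (SD, n = 3) of the family's summed level in wild-type hypothalamus. The neutral amino acid transporters led in the other tissues. Slc1a4 held 37.7% ± 2.21 in pituitary, ahead of Slc1a3 with 30.9% ± 5.44, and Slc1a5 held 48.9% ± 5.88 in ovary and 56.2% ± 4.88 in uterus. Slc1a5, a glutamine transporter, was itself lower in hypothalamus than in pituitary, by log2 -3.84 ± 0.37 (adjusted p 4.98e-07).

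Gja1, Agt and Aldh1l1 were shared between hypothalamus and ovary. Gja1 encodes connexin 43, the gap junction protein of both astrocytes and granulosa cells (chr10:56377330-56402513, plus strand). It was at 3481, 3277 and 2948 CPM in wild-type ovary and at 620, 530 and 562 CPM in hypothalamus. Uterus held 162, 167 and 242 CPM and pituitary 42.1, 56 and 52.7 CPM. The 4 tissues did not overlap and every neighbour in that order differed. Ovary exceeded hypothalamus 5.97-fold (log2 of hypothalamus over ovary -2.58 ± 0.18, edgeR adjusted p 7.26e-09), and hypothalamus exceeded pituitary 10.6-fold (log2 3.40 ± 0.19). Gja1 was first of 20 connexins per kilobase in all 4 tissues, with 98.3% ± 0.161 of their sum in ovary, 60.7% ± 4.24 in hypothalamus, 56.7% ± 3.27 in pituitary and 55.2% ± 6.24 in uterus. Gjb6, the second astrocyte connexin (connexin 30), took 16.3% ± 2.16 in hypothalamus and was at 0.0174 CPM in ovary.

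Agt encodes angiotensinogen, the precursor of the angiotensins, which astrocytes make in the brain (chr8:124556534-124569706, minus strand). It was at 224, 227 and 249 CPM in wild-type hypothalamus and at 124, 94.8 and 219 CPM in wild-type ovary. In pituitary it was at 1.62, 0.666 and 0.753 CPM and in uterus at 0.555, 0.865 and 1.23 CPM. Hypothalamus and ovary both stood far above pituitary and uterus, with a hypothalamus over pituitary log2 difference of 7.77 ± 0.40 and an ovary over uterus difference of 7.36 ± 0.38. Hypothalamus and ovary themselves did not overlap, but their difference was 0.60 ± 0.27 with an adjusted p of 0.0572. That difference passed the threshold under other scalings and tools, for example 0.67 and 0.0348 with relative log expression scaling, and was 1.02 (adjusted p 0.00168) without wild-type ovary library 3.

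Of 10 other genes of the renin-angiotensin system, 8 were tested, and 3 were higher and 3 lower in hypothalamus than in pituitary. Among all genes 61.1% passed in either direction. Ren1, the renin gene, had 0 counts in all 24 libraries, which allows up to 0.082 CPM in wild-type pituitary and less in the other wild-type groups. The type 1 receptor gene Agtr1a was highest in pituitary, at 23.9, 42 and 24 CPM, against 2.48, 2.92 and 2.74 CPM in hypothalamus (log2 of hypothalamus over pituitary -3.56 ± 0.31, adjusted p 1.76e-07). Agt and Agtr1a were therefore high in different tissues.

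Aldh1l1 encodes a cytosolic formyltetrahydrofolate dehydrogenase used as a marker of astrocytes across the brain (chr6:90486427-90600203, plus strand). It was at 64.2, 69.9 and 67 CPM in wild-type hypothalamus, 58.6, 34.8 and 56.2 CPM in ovary, 25.8, 22.3 and 12.8 CPM in uterus and 6.03, 8.36 and 11.6 CPM in pituitary. Hypothalamus lay above every ovary library, but their difference did not pass the test (log2 0.35 ± 0.26, adjusted p 0.244). Uterus and pituitary lay below both, and the step from ovary to uterus was log2 1.28 ± 0.27 (adjusted p 0.000941). Of 10 other genes of folate one-carbon metabolism tested, 7 were lower and 1 higher in hypothalamus than in ovary, with a median of -1.16. Among all genes 71.4% passed in either direction.

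The 3 tanycyte genes did not share a tissue pattern. Vim encodes vimentin (chr2:13573927-13582826, plus strand), and it was at 1037, 1003 and 1000 CPM in wild-type uterus, 400, 604 and 452 CPM in ovary, 47.7, 48 and 50.7 CPM in hypothalamus and 34.8, 34.9 and 40.4 CPM in pituitary. Its level in hypothalamus was 22.1-fold below uterus (log2 -4.47 ± 0.18) and 10.5-fold below ovary (log2 -3.39 ± 0.17). Hypothalamus and pituitary did not overlap, and their log2 difference of 0.31 ± 0.16 missed the threshold (adjusted p 0.0976) but passed it with DESeq2 (0.41, adjusted p 0.0276) and with relative log expression scaling (0.41, adjusted p 0.0371). Fewer vimentin-expressing cells and less vimentin RNA per cell cannot be told apart in whole tissue, and the same holds for every member.

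Nes encodes nestin, an intermediate filament of neural progenitors, tanycytes and some vascular and muscle cells (chr3:87971078-87980451, plus strand). It was lowest in wild-type hypothalamus, at 20.7, 20.2 and 11.5 CPM, and highest in pituitary, at 34.7, 76 and 85.3 CPM. Ovary held 19.9, 27.7 and 35.5 CPM and uterus 62.1, 49.3 and 39.2 CPM. Pituitary exceeded hypothalamus by 4-fold (log2 of hypothalamus over pituitary -2.00 ± 0.34, adjusted p 0.000123), and these groups did not overlap. Hypothalamus and ovary overlapped (log2 -0.74 ± 0.33, adjusted p 0.0557), and so did pituitary and uterus (0.39 ± 0.32, adjusted p 0.292). For Nes, 3 calls turned on single wild-type libraries: hypothalamus against ovary passed without ovary library 1 (-0.94) or pituitary library 1 (-0.74), pituitary against uterus passed without pituitary library 1 (0.69), and ovary against uterus (-0.87 ± 0.32, adjusted p 0.0304) was lost without ovary library 1 (-0.67), ovary library 2 (-0.87), uterus library 1 (-0.69) or uterus library 2 (-0.89).

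Rax is a homeobox gene of the developing hypothalamus and retina that stays on in tanycytes and pituicytes. It was the least abundant member in wild-type hypothalamus, ovary and uterus, with 11, 23 and 15 counts in the wild-type hypothalamus libraries (0.802, 1.32 and 1.06 CPM) and 42, 42 and 14 counts in pituitary (3.78, 3.11 and 1.17 CPM). All 6 ovary libraries had 0 counts, and 2 uterus libraries held 5 counts and 1 count. With a floor of 3 counts over the group (0.0483 CPM), wild-type hypothalamus was at least 21.9-fold and pituitary at least 55.6-fold higher than ovary. Pituitary and hypothalamus overlapped, and their log2 difference of -1.43 ± 0.73 had an adjusted p of 0.108. Rax shares 1604 exonic bases with the antisense gene Raxos1, and the libraries do not keep strand, so reads of the 2 genes cannot be told apart. Smaller antisense overlaps exist for Slc1a2 (189 bases with Gm13872) and Aldh1l1 (499 bases with Gm15756).

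Compared per kilobase of the longest annotated transcript, wild-type hypothalamus held 308 CPM per kilobase of Slc1a3, 147 of Gja1, 133 of Slc1a2, 123 of Agt and 102 of Gfap. Vim (16.7), Aldh1l1 (16.1), Nes (2.85) and Rax (0.37) followed at a distance, so the 3 tanycyte genes were among the lower 4 members. Among 14 intermediate filament genes, Gfap held the largest share in hypothalamus (30.9% ± 2.46, SD, n = 3), ahead of the neurofilament light chain gene Nefl with 25.9% ± 3.49. Vim held 5.12% ± 0.679 there and Nes 0.856% ± 0.191. In ovary Vim held 70.4% ± 4.44 and in uterus 30.4% ± 2.22, while in pituitary the keratin gene Krt18 led with 38.9% ± 2.89.

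Most other astrocyte genes were, like Gfap and the glutamate transporters, higher in hypothalamus, whereas other tanycyte genes were split. Of 26 other astrocyte genes, 25 were higher and 1 lower (Mfge8) in wild-type hypothalamus than in pituitary, with a median log2 difference of 3.45. Against ovary 22 were higher and 3 lower (median 4.30), and against uterus 23 were higher and 2 lower (median 5.76). Of all genes tested, 30.8%, 35.2% and 36.8% were higher in hypothalamus than in pituitary, ovary and uterus. The 4 most abundant per kilobase were Sparcl1, Ndrg2, Clu and Glul. Ndrg2 was higher in hypothalamus than in pituitary by log2 4.88 ± 0.17 and glutamine synthetase, Glul, by 2.15 ± 0.21. Clu, a secreted chaperone, differed by only 0.64 ± 0.20 and did not pass against ovary (-0.37 ± 0.20, adjusted p 0.115).

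Of 14 other tanycyte genes, 5 were higher and 5 lower in hypothalamus than in pituitary, with a median of 0.01. Against ovary 7 were higher and 3 lower (median 0.96), and against uterus 7 and 5 (median 0.87). Fndc3c1 had 0 counts in wild-type uterus, and at its bound of at least 22.6-fold (floor of 3 counts over the group) it stays above that median, which does not move. Gpr50, an orphan receptor gene, was at 10.5, 14.1 and 8.51 CPM in hypothalamus and 3.42, 3.26 and 3.26 CPM in pituitary (log2 1.63 ± 0.37). Of 18 genes induced in reactive astrocytes, 10 were lower and 3 higher in hypothalamus than in pituitary, and 14 lower than in ovary and in uterus. Serpina3n passed as higher in hypothalamus than in pituitary, ovary and uterus (log2 4.71, 2.71 and 4.46), and Amigo2 than in pituitary and ovary (0.73 and 2.30). Of all genes tested, 61.1%, 71.4% and 75.7% passed in either direction against pituitary, ovary and uterus. Those higher in hypothalamus made up 30.8%, 35.2% and 36.8% of all genes, and the rest of the genes that passed were lower there.

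**Figure D2:**
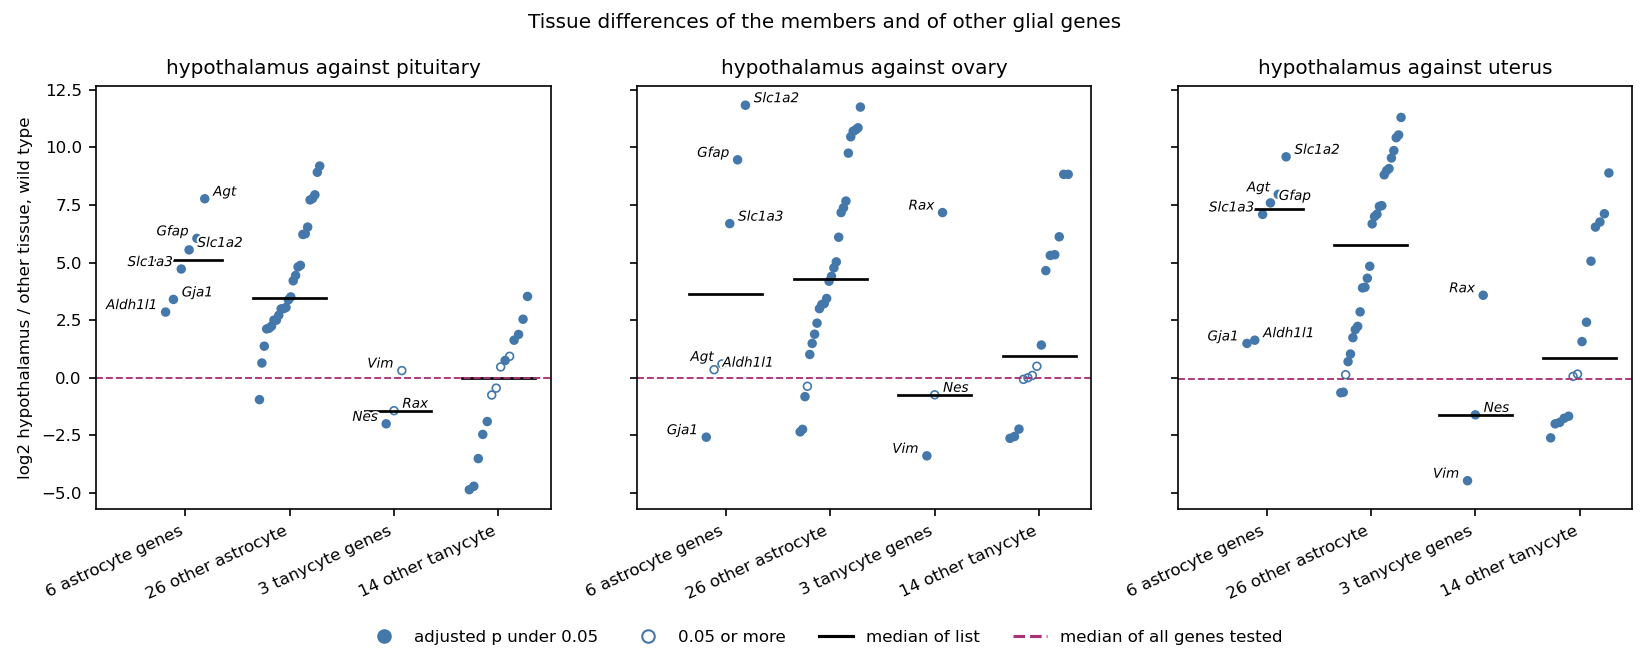
Log2 differences between wild-type hypothalamus and each other tissue for the 6 astrocyte and 3 tanycyte genes and for 26 other astrocyte and 14 other tanycyte genes. Filled points passed the adjusted p threshold of 0.05, black lines are list medians and the dashed line is the median of all genes tested. Rax against ovary is a fitted value against a group with 0 counts. The 26 other astrocyte genes have medians of 3.45, 4.30 and 5.76, and the 14 other tanycyte genes 0.01, 0.96 and 0.87.

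In the KO-labelled mice the tissue pattern was much the same, in libraries that the wild-type fit did not use. Of 54 combinations of a member and a pair of tissues, 45 passed the test in wild type, 45 in the KO-labelled libraries and 42 in both, all 42 with the same sign. The share of all genes that passed in both genotypes is not given here, so the 42 do not set the members apart. By pair of tissues, 8 of 9 members passed between KO-labelled hypothalamus and pituitary (50.6% of the 16545 genes tested), 7 between hypothalamus and ovary (61.3%) and 9 between hypothalamus and uterus (65.5%). Between pituitary and ovary 9 passed in either genotype (61.6% of genes in wild type and 50.4% in KO-labelled). Between pituitary and uterus 7 passed in either (69.3% and 59.5%), and between ovary and uterus 7 and 5 (59.1% and 40.2%). Vim was higher in KO-labelled hypothalamus than pituitary (adjusted p 0.00944) and did not pass in wild type, as described above. KO-labelled Aldh1l1 stood at 102 CPM on average in both hypothalamus and ovary (adjusted p 0.999).

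For each member, the 3 genes with the most similar profile over the 24 libraries were found by the root mean square (RMS) difference of centred log2 CPM among 16971 genes. Vim had the closest matches, Tgfb1i1 (0.351), Serpinf1 (0.373) and Htra3 (0.374), and Nes was next with Adcy6 (0.46), C77080 (0.465) and 2900026A02Rik (0.468). For Slc1a3 they were the potassium channel gene Kcna1 (0.572), the serotonin receptor gene Htr7 (0.615) and Trpc7 (0.678), and for Gja1 Sema7a (0.537), Bmpr1b (0.663) and Gcnt4 (0.664). Aldh1l1 was matched by Acat2 (0.528), Plch2 (0.554) and Tlcd1 (0.571). Rax was matched by Hid1 (0.616), Clrn1 (0.643) and Rtp2 (0.67). The measure includes the differences between tissues, and several of the matches are neuronal genes. Gfap was matched by the neuronal chloride transporter gene Slc12a5 (0.639), Ndrg4 (0.708) and Gabrq (0.738), and Slc1a2 by Vat1l (0.813), Nefl (0.888) and Anks1b (1.02). For Agt 2 matches are given, Cyp4f14 (1.13) and Slc25a18 (1.24).

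The genotypes were compared within each tissue, and no member passed the adjusted threshold in any. In hypothalamus 0 of 9 members passed edgeR's test, as did 0% of all 14788 genes tested, and DESeq2 and limma-voom also called 0 members. Of the 9, 3 members (Slc1a2, Rax and Vim) had an unadjusted p under 0.05, where 6.76% of all genes did. In 4 of 9 members the 3 wild-type and 3 KO-labelled libraries did not overlap in CPM scaled over the 24 libraries. This held for 10.9% of all genes on log2 CPM scaled within hypothalamus, so count and share are not like for like. By log2 deviation from the hypothalamus mean, Aldh1l1 overlapped, with a lowest KO-labelled value of -0.19 and a highest wild-type value of -0.18. Gja1 did not overlap there, with a highest KO-labelled value of 0.11 and a lowest wild-type value of 0.12.

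In KO-labelled hypothalamus Slc1a2 was at 770, 659 and 1371 CPM, below the wild-type libraries except that library 3 lay above the lowest wild-type value of 1249 CPM. The log2 difference was -0.77 ± 0.30 (p 0.0237, edgeR adjusted p 0.588). KO-labelled Slc1a3 was at 1142, 840 and 1249 CPM, all under the lowest wild-type library, with a log2 difference of -0.39 ± 0.23. Gja1 was at 470, 311 and 544 CPM, overlapping wild type, with -0.41 ± 0.25. The 3 differences were of 1 sign and all had an adjusted p of 0.588.

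Other members had higher values in KO-labelled hypothalamus. Agt was at 280, 423 and 282 CPM (log2 0.45 ± 0.25), Aldh1l1 at 83, 150 and 71.8 CPM (0.56 ± 0.30) and Vim at 76.9, 89.7 and 57.5 CPM (0.57 ± 0.25). On this CPM scale each of these groups lay wholly above wild type, Aldh1l1 only narrowly (71.8 against 69.9 CPM). Rax was at 1.15, 5.17 and 1.64 CPM (1.27 ± 0.58), of which only library 2 lay far from wild type. Gfap, at 219, 354 and 275 CPM, and Nes, at 14.8, 27.4 and 11.2 CPM, overlapped wild type with log2 differences of 0.03 ± 0.25 and -0.02 ± 0.36. The largest adjusted p of the 9 was 0.988 and the smallest 0.588.

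KO-labelled library 2 gave the lowest of the 6 hypothalamus levels for Slc1a2, Slc1a3 and Gja1 and the highest for Gfap, Aldh1l1, Agt, Rax, Vim and Nes. This library also stood apart by base composition: genes with a transcript GC content in the lowest of 5 bins had a median log2 deviation of -0.71 from the 6-library mean, and those in the highest bin 0.67. Over the 9 members, Pearson's r between GC content and deviation in this library was 0.70, as a description of 9 genes that share 1 library. It was -0.36, -0.39 and -0.69 in wild-type libraries 1 to 3, -0.01 in KO-labelled library 1 and -0.53 in KO-labelled library 3. Deviations are from the 6-library mean, so the values of r depend on each other. The level of Rn45s, the ribosomal RNA precursor, was 12564 CPM in KO-labelled library 2, against 384 to 2731 CPM in the other 5 libraries. The part of base composition or of RNA quality in the member differences was not tested by itself. When length and GC trends were removed, Slc1a2 went from -0.77 to -0.13, Slc1a3 from -0.39 to -0.16, Gja1 from -0.41 to -0.14, Agt from 0.45 to -0.02 and Gfap from 0.03 to -0.31, while Vim was at 0.64 and Rax at 1.07. Without KO-labelled library 2, Slc1a2 was at -0.56, Agt at 0.23, Aldh1l1 at 0.17, Vim at 0.43 and Rax at 0.37.

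**Figure D3:**
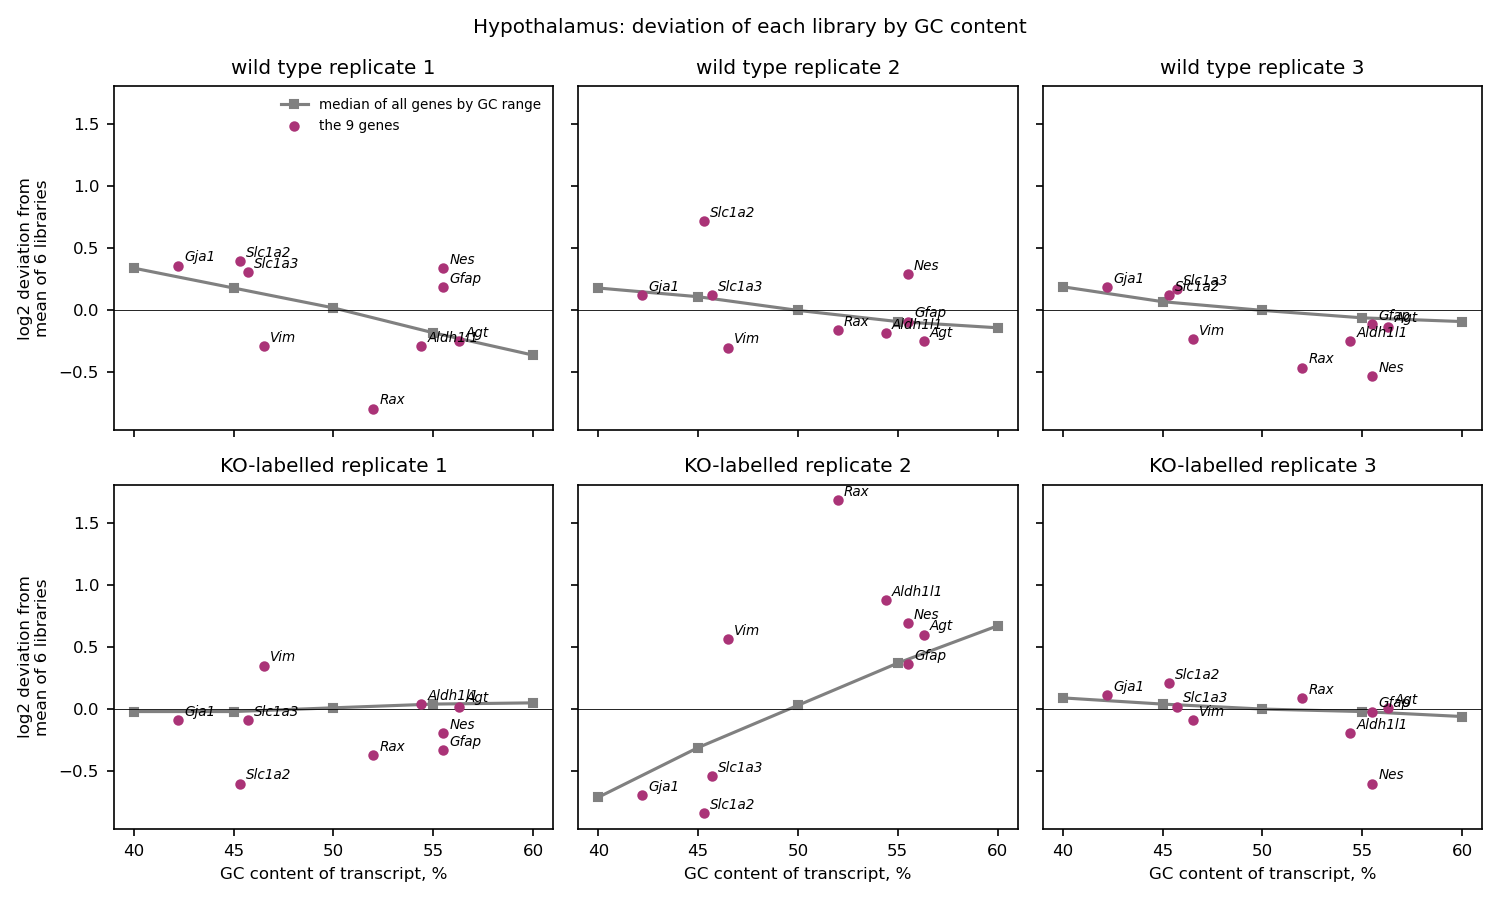
Log2 deviation of each member from its mean over the 6 hypothalamus libraries, against transcript GC content (percent), with medians of all genes in 5 GC bins, the outer bins being open-ended. In KO-labelled library 2 the bin medians climb from -0.71 to 0.67, and Slc1a2, Slc1a3 and Gja1 lie at the low end while Agt and Aldh1l1 lie at the high end. Vim (46.5% GC) lies at 0.56, where its bin median is -0.31, and Rax (52% GC) at 1.68, where its bin median is 0.03.

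No gene on the lists of other cells passed the genotype test in hypothalamus. Since edgeR called 0 of all 14788 genes there, this sets no list apart, and lists were not tested as sets. Of 26 other astrocyte genes 0 passed and 14 had a positive difference, with a median of 0.05 beside 0.01 for all genes. Their summed level was 13969 to 14236 CPM in wild-type and 13926 to 14392 CPM in KO-labelled hypothalamus. Of 14 other tanycyte genes 0 passed and 6 were positive (median -0.03). Summed oligodendrocyte markers ranged from 6903 to 12503 CPM in wild type and from 7355 to 10770 CPM in KO-labelled. Summed fibroblast markers ranged from 136 to 157 CPM in wild type and from 156 to 188 CPM in KO-labelled, and the 5 genes of that list did not move alike. Pdgfra, which oligodendrocyte precursors also express, overlapped between genotypes, at 64.5 to 103 CPM and 62.1 to 88.4 CPM. The collagen gene Col1a1 lay at 2.18 to 2.75 CPM in wild type and, without overlap, at 5.8, 20.9 and 6.11 CPM in KO-labelled hypothalamus (log2 2.10 ± 0.49, edgeR adjusted p 0.588). Col1a2 likewise lay at 8.81 to 14.1 CPM and at 15.9, 42.4 and 20.2 CPM (1.22 ± 0.37, edgeR adjusted p 0.588). Vim, which fibroblasts also express, was separated in the same direction, and the part of fibroblast RNA in its difference was not tested.

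In pituitary, the glutamate transporter Slc1a3 gave the smallest p of any member in any tissue. KO-labelled libraries held 24.9, 31.3 and 33.5 CPM (29.9 ± 4.51, SD, n = 3), all below the wild-type 40.3, 39.5 and 65.1 CPM (48.3 ± 14.5). The log2 difference was -0.72 ± 0.21 (p 0.00451, edgeR adjusted p 0.292), and it was -0.45 without wild-type library 3. In the authors' deposited table Slc1a3 had a log2 fold change of -0.56 in pituitary with an adjusted p of 0.121. Base composition also separated the genotypes here. The rank correlation over genes between a library's deviation from the pituitary mean and transcript GC content was -0.265, -0.219 and -0.453 in wild type. In the KO-labelled libraries it was 0.498, 0.179 and 0.125. The part of base composition in the Slc1a3 difference was not tested by itself. No other member had separate groups in pituitary: 1 of 9 did, against 19.6% of all 14163 genes tested, 1 of 9 had an unadjusted p under 0.05, against 12.3%, and 0 of 9 passed the adjusted threshold, against 0.0424%. DESeq2 and limma-voom also called 0 members. Nes was at 103, 183 and 64.1 CPM in KO-labelled pituitary, overlapping wild type at 0.80 ± 0.51, and Rax was at 1.97, 3.53 and 1.25 CPM (-0.28 ± 0.51).

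Slc1a3 and Rax are also on a list of 8 pituicyte and posterior lobe genes, chosen with earlier results of these data known. Its counts and sums are therefore a description of the list and not a test of it. Of the 8 genes, 7 had lower values in KO-labelled pituitary (median -0.60, all genes -0.00). Of these, 1 passed the test, Scn7a, a sodium channel gene of circumventricular glia, whose wild-type libraries held 71.9, 80.1 and 104 CPM, above the 26.8, 41.5 and 34.8 CPM of the KO-labelled ones (log2 -1.34 ± 0.20, edgeR adjusted p 0.0291). The Scn7a call was lost on leaving out wild-type library 2 (log2 -1.38, adjusted p 0.134) or 3 (-1.18, 0.145) or the third KO-labelled one (-1.36, 0.0668), and with limma-voom (-1.35, 0.055) or a single fit over 24 libraries (-1.32, 0.276). The summed level of the 6 genes on the list that are not members was 158, 172 and 208 CPM in wild-type pituitary, above all 3 KO-labelled libraries (72, 109 and 104 CPM), and none of them was at 0. Most of that sum was Scn7a itself and Col25a1, whose wild-type libraries held 58.3, 73.6 and 74.1 CPM against 29.6, 40.5 and 41.7 CPM in the KO-labelled ones (log2 -0.91 ± 0.18, edgeR adjusted p 0.18). The part of these genes in the Slc1a3 difference was not tested, nor was that of base composition in the Scn7a and Col25a1 differences by itself. Of 21 other astrocyte genes tested in pituitary 0 passed, with a median of 0.05.

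In ovary 6 of 9 members had enough counts to be tested, and Gfap, Slc1a2 and Rax did not. Gja1 was at 1896, 1521 and 2463 CPM in KO-labelled ovary (1960 ± 474, SD, n = 3), all below the wild-type 3481, 3277 and 2948 CPM (3236 ± 269). The log2 difference was -0.73 ± 0.29 (p 0.0358, edgeR adjusted p 0.597). In the authors' deposited table it was -0.65 with an adjusted p of 0.2128. Vim differed in the other direction, at 708, 924 and 625 CPM against 400, 604 and 452 CPM, also without overlap (0.63 ± 0.27, p 0.0502, adjusted p 0.597). Separate groups were thus seen in 2 of 6 members tested, against 17.8% of all 14460 genes, and 1 of 6 had an unadjusted p under 0.05, against 7.68%. None of the 6 passed the adjusted threshold with edgeR, DESeq2 or limma-voom, and edgeR called 0% of all genes.

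KO-labelled ovary library 2, which stood apart on the first principal component, held the lowest Gja1 and the highest Vim of its group, and without it the differences were -0.57 and 0.45. It also held 35771 CPM of Rn45s against 619 to 1339 CPM in the other 5 ovary libraries. Aldh1l1 was at 31.7, 148 and 126 CPM in KO-labelled ovary, a spread of 4.69-fold that took in the wild-type range (1.03 ± 0.52). Slc1a3 was at 8.96, 2.41 and 5.88 CPM (-1.12 ± 0.58), and Agt, at 147, 172 and 111 CPM, differed by -0.03 ± 0.34.

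In uterus 8 of 9 members were tested and 0 passed with edgeR, DESeq2 or limma-voom, against 0.349% of all 14910 genes with edgeR. None had an unadjusted p under 0.05 (12.7% of all genes) or separate groups (19.5%). The largest difference was in Slc1a2, at 0.258, 0.752 and 1.51 CPM in KO-labelled and 1.75, 1.4 and 2.51 CPM in wild-type uterus (log2 -1.15 ± 0.55, adjusted p 0.435), from 6 to 49 counts. Vim lay within 828 to 1072 CPM over all 6 libraries (-0.07 ± 0.15). Of 18 genes of the reactive astrocyte list, which epithelial and immune cells also express, 2 passed in uterus. The iron-binding lipocalin gene Lcn2 rose from 7.43, 6.47 and 14.5 CPM in wild type to 45.2, 29.8 and 31.3 CPM (log2 1.90 ± 0.31, edgeR adjusted p 0.0447). Steap4, a metalloreductase gene, fell from 80.6, 89.6 and 88.8 CPM to 24.7, 40.8 and 34.5 CPM (-1.37 ± 0.18, edgeR adjusted p 0.0324). Neither call held without wild-type library 1, 2 or 3, with adjusted p 0.176, 0.221 and 0.0547 for Lcn2 and 0.093, 0.216 and 0.141 for Steap4. The log2 differences were then 1.76, 1.70 and 2.34 for Lcn2 and -1.42, -1.34 and -1.36 for Steap4. Lcn2 also missed the threshold without KO-labelled library 1 (1.70, adjusted p 0.0547).

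**Figure D4:**
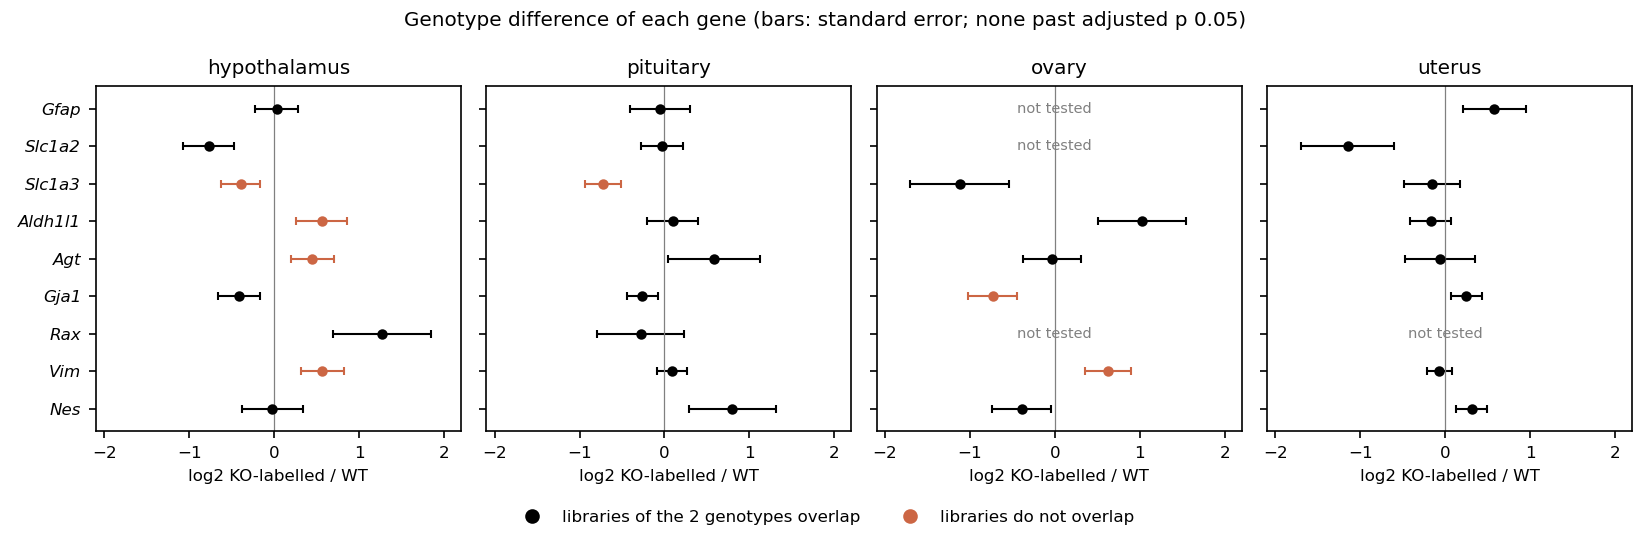
Log2 difference of KO-labelled against wild-type libraries for each tested member in each tissue, with its standard error. Orange points mark members whose 3 wild-type and 3 KO-labelled libraries do not overlap in CPM scaled over the 24 libraries. All intervals belong to adjusted p-values above 0.05. The farthest from 0 are Rax in hypothalamus at 1.27, Slc1a2 in uterus at -1.15 and Slc1a3 in ovary at -1.12.

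Whether a genotype difference itself changed between tissues was tested over all 24 libraries with 3 degrees of freedom. None of the 9 members passed, against 0.053% of all 16971 genes, and 0 passed with DESeq2 or limma-voom. Gja1 (p 0.0378, edgeR adjusted p 0.637) and Vim (p 0.0474, adjusted p 0.673) had an unadjusted p under 0.05. Gja1 had a log2 difference of -0.73 in ovary and 0.25 ± 0.18 in uterus, where wild type held 162, 167 and 242 CPM and KO-labelled libraries 218, 257 and 205 CPM.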

How the data were processed

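RNA was sequenced from 24 whole-tissue libraries (4 tissues, 2 genotypes, 3 libraries each). Per the labels' protocols, 0.5 µg of RNA with integrity numbers of at least 8 was poly-A selected, made into unstranded TruSeq libraries and amplified by 13 cycles of PCR. Females were mated at 2 per male. Values deposited by the authors for each library are unnormalized counts of reads per gene. Tools named in the submitters' processing notes are STAR, HTSeq, FastQC, Trimmomatic and DESeq2, with the build mm10. Not given in the sources used here are their versions and the annotation. A table of genotype comparisons made by the authors with DESeq2 holds, per the file headers, a mean normalised count (signal), a log2 fold change, a Wald score and p-values. Each count column was tied to its tissue by the deposited sheet's name, since column names alone did not always carry it.

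Of 24222 entries, 27 carried a calendar date in place of a symbol and were left out (0.122% to 0.392% of counts). Tests used edgeR 4.0.16 in R 4.3.3 (TMM, default filter on low counts, robust quasi-likelihood, Benjamini-Hochberg over all genes tested, threshold 0.05, two-sided), with genotypes compared within each tissue and tissues compared within each genotype. The SE of a log2 difference is its size over the square root of F. Overlap of a member's genotype groups was read on CPM scaled over the 24 libraries. Its share of all genes was read on log2 CPM scaled within each tissue. Alternatives used DESeq2 1.42.0 and limma 3.58.1. Simulated data tested only edgeR's fit, for genotype in hypothalamus and for wild-type hypothalamus against pituitary alone. CPM per kilobase used the longest transcript of GENCODE M21, which annotated 22988 symbols. Promoters came from RefSeq.

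The 9 members and all gene lists were chosen with earlier results of these data known. Named genes were all members, list genes past the threshold in a genotype comparison (at most 4), the 4 most abundant per kilobase in wild-type hypothalamus for tissue comparisons, and 3 nearest profiles per member, of which some are not reported here. Agtr1a, Slc1a5, Gjb6, Mfge8, Fndc3c1, Col1a1, Col1a2, Pdgfra, Col25a1, Rn45s and Krt18 were also named after their values were seen. Counting error alone is small for most members. Floors of 3 counts cover counting error only.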

Additional observations from a re-analysis of the deposited data

How the results depend on the processing

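Of 32 member differences between genotypes under 479 alternatives, 444 kept their direction and side of the threshold, 35 changed sign and 0 passed the threshold, with a smallest adjusted p of 0.0989. Of 108 tissue differences under 2104 alternatives, 2053 were kept, 16 lost the call, 21 gained it and 14 changed sign. Of 90 called tissue differences 0 changed sign and 86 passed in every alternative. The 4 others were Nes between ovary and uterus in both genotypes and, in KO-labelled libraries, Gfap and Agt between pituitary and uterus. The causes were not tested.

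Some genotype differences changed sign. In hypothalamus Nes was 0.03 in a single fit over 24 libraries and 0.02 with length and GC trends removed, which also gave -0.31 for Gfap and took Agt from 0.45 to -0.02. In pituitary Slc1a2 was 0.01 and 0.23 under those settings and Aldh1l1 was -0.02 with trends removed. With limma-voom Agt was 0.05 in ovary and 0.01 in uterus. Between KO-labelled tissues, Rax for hypothalamus against pituitary was -0.88 without the 4 libraries that stand apart (an alternative chosen after seeing the data), and Aldh1l1 for hypothalamus against ovary was 0.0016 with a minimum of 1 CPM and 0.21 with limma-voom.

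Leaving out 1 library at a time gave, in hypothalamus, -0.46 to 0.23 for Nes and -0.16 to 0.18 for Gfap. In pituitary it gave -0.32 to 0.12 for Slc1a2, -0.1 to 0.36 for Aldh1l1, -0.77 to 0.02 for Rax, -0.36 to 0.12 for Gfap and -0.07 to 0.18 for Vim. In ovary Agt ranged from -0.26 to 0.39. In uterus Aldh1l1 ranged from -0.41 to 0.05, Agt from -0.3 to 0.24, Slc1a3 from -0.56 to 0.15 and Vim from -0.16 to 0.02. Among wild-type tissues Agt ranged from -0.29 to 0.47 for pituitary against uterus and Slc1a3 from -0.22 to 0.75 for ovary against uterus. Among KO-labelled tissues Rax ranged from -0.68 to 0.72 for hypothalamus against pituitary, and for hypothalamus against ovary Nes ranged from -0.71 to 0.12 and Aldh1l1 from -0.43 to 0.3.

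Correlations between the deviations of libraries with the same number were -0.23 to 0.201 over 12 pairs across genotypes (1 above 0.1), -0.0586 to 0.0806 over 18 pairs across wild-type tissues (0 above 0.1) and -0.329 to 0.293 over 18 pairs across KO-labelled tissues (9 above 0.1). In no comparison were all 3 above 0.1, so the numbers were not taken to pair the samples. With the number as a replicate block, 0 members passed in any genotype comparison and 7, 7, 9, 9, 7 and 7 members passed in the 6 wild-type tissue comparisons (KO-labelled 8, 7, 9, 9, 7 and 5). The block turned Agt to 0.05 between genotypes in ovary and Aldh1l1 to 0.04 for KO-labelled hypothalamus against ovary, and gave Agt 0.68 (adjusted p 0.0203) for wild-type hypothalamus against ovary. It left Lcn2 in uterus at an adjusted p of 0.0505, and a single fit over 24 libraries left Lcn2 at 0.0952 and Steap4 at 0.218.

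Counts over all genes between genotypes depended strongly on the tool, from 0 to 7 in hypothalamus, 1 to 46 in pituitary, 0 to 48 in ovary and 0 to 542 in uterus, with DESeq2 the highest in each, and from 2 to 163 for the interaction. Another scaling moved the median of all genes by more than 0.1 in 4 comparisons, by 0.11 for wild-type hypothalamus against uterus with relative log expression and by -0.10, -0.12 and -0.13 for KO-labelled hypothalamus against pituitary, ovary and uterus without Prl and Gh. Depth limits Rax everywhere, and Gfap, Slc1a2 and Agt where they had fewer than 50 counts.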
